A study of Danio rerio with 11 samples.

Results

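The spliceosome genes described here were 66 zebrafish genes picked by name from the table of all genes. The names were those of Sm proteins and of other U1 and U2 snRNP proteins (snrp followed directly by a letter or digit). They also covered LSm proteins (lsm and smx5, without names that go on to a second digit after lsm1) and the U2 snRNP factors (sf3a, sf3b, u2af, u2surp). In addition they took in the pre-mRNA processing factors and their partners (prpf, sart1, sart3, snw1, cdc5l, crnkl1) and the serine/arginine-rich splicing factors (srsf). They matched 68 gene IDs, of which 66 reached at least 1 FPKM (a fragment count normalised to transcript length and to the mapped fragments of the library) in at least 2 of the 8 libraries. These 66 made up 0.476% of the 13862 genes that passed the same filter. No member came close to failing the filter: all 66 reached 1 FPKM in all 8 libraries, and the second-highest value of each was at least 9.58 FPKM. Single values did come close to 1 FPKM. The lowest was 1.59 FPKM, for prpf18 in WT stage II replicate 2, and smx5 was at 1.60 and 1.95 FPKM in WT stage I. The 2 matches that failed were snrpf, the gene of the SmF protein, listed at 0.205, 0.202, 0 and 0.207 FPKM in the stage I libraries and at 0 in the 4 stage II libraries, and a second gene ID named srsf3a, listed under 0.0001 FPKM in every library. For SmF, another copy may be listed under another name, so these values do not show that its mRNA is absent. Genes named snrnp fell outside the naming rule and are counted separately at the end.

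The study compared oocytes of wild-type (WT) zebrafish with oocytes of fish homozygous for the tsu7d allele of znf706, made with CRISPR/Cas9 and labelled MZznf706. The znf706 gene encodes a small zinc finger protein. All fish were juvenile females of 3 months. Ovaries were digested with an enzyme-based buffer, about 600 stage I or about 150 stage II oocytes per library were picked with a pipette, and polyadenylated RNA was sequenced. The 4 groups were WT stage I, mutant stage I, WT stage II and mutant stage II, with 2 libraries each, called biological replicates by the submitters. How many females stand behind a library is not given in the sources used here, so p-values measure the spread between these libraries. The 3 CUT&Tag libraries of the series, made from WT stage I oocytes, were not analysed here.

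Introns are removed from pre-mRNA by the spliceosome, which is assembled anew on each intron from small nuclear ribonucleoproteins (snRNPs). The U1 snRNP pairs with the start of the intron, U2 with the branch point, and the tri-snRNP of U4, U6 and U5 then joins and is remodelled into the catalytic form. Most snRNAs carry a ring of Sm proteins, U6 carries a ring of LSm proteins, and SR proteins bind exons and bring the snRNPs to them. Growing oocytes make and store much of the RNA and many of the proteins that the early embryo uses. The snRNAs themselves lack polyA tails and were not measured here.

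The mutated gene stood at 232 and 238 FPKM in WT stage I, 181 and 147 in mutant stage I, 157 and 143 in WT stage II and 129 and 141 in mutant stage II. Its values did not overlap between genotypes at either stage. It was lower in the mutant at stage I (log2 fold change -0.52 ± 0.11 SE, adjusted p = 0.0056), whereas at stage II it missed the threshold (-0.15 ± 0.11, adjusted p = 0.29). The nature of the tsu7d change is not given in the sources used here, so this level does not check the labels. Summed FPKM ran from 653659 to 899582 per library and 11992 to 12691 genes reached 1 FPKM. Depth is unknown, since no read counts were used; the commonest ratio of very low values, sought only near equal depth, placed the libraries at 0.889 to 1.04 of WT stage I replicate 1. All 7 oocyte markers found in the table were expressed, among them buc at 439 to 1061 FPKM and zp3b at 1294 to 2190 FPKM. At an adjusted p under 0.05, 2 were higher and 1 lower in the mutant at stage I, and 3 and 2 at stage II. Of all tested genes, 18.4% and 26.9% were so at stage I, and 25.4% and 19.2% at stage II. The marker figla was at 15.6 and 14.4 FPKM in WT stage I and 120.7 and 103 in mutant stage I. At stage II it was at 8.35 and 10.04 in WT and 57.8 and 52.7 in the mutant. Summed FPKM of 10 leukocyte markers was 3.97 and 4.90 in WT stage I, 13.7 and 16.2 in mutant stage I, 1.79 and 3.15 in WT stage II and 9.14 and 12.6 in mutant stage II, with mpeg1.1 at 0 throughout. The sum over 9 granulosa and theca markers was 254 to 274 in WT stage I, 102 to 108 in mutant stage I, 94.9 to 124 in WT stage II and 335 to 354 in mutant stage II, and nearly all of it came from cyp11a1 and cyp17a1, while amh, star and hsd3b1 stayed at or under 0.205. At stage I cyp11a1 was at 220.9 and 202.6 FPKM in WT against 0.15 and 0.06 in the mutant. There cyp17a1 went the opposite way, at 47.95 and 47.6 against 96.17 and 104.6. At stage II both were higher in the mutant. The values were 53.48 and 82.42 against 278.3 and 260.5 for cyp11a1, and 33.97 and 34.88 against 73.33 and 69.24 for cyp17a1. Among the less abundant markers of this list, gsdf was lower in the mutant at stage II (log2 fold change -1.15 ± 0.35, adjusted p = 0.031). It was at 5.41 and 4.39 FPKM in WT against 0.839 and 2.79 in the mutant. At stage I foxl2b was lower in the mutant (-0.60 ± 0.18, adjusted p = 0.03), at 1.39 and 1.02 against 0.583 and 0.320 FPKM. The sums of the stroma, muscle and endothelium list were 2.76 to 3.90 in WT stage I and 7.57 to 8.54 in mutant stage I. At stage II they were 5.96 to 6.39 in WT and 4.99 to 5.78 in the mutant. Those of the blood list were 1.085 to 2.03 in WT stage I and 2.62 to 4.37 in mutant stage I. At stage II the blood sums were 0.623 to 0.7265 in WT and 4.38 to 5.27 in the mutant. The part of these cells in the results below was not tested. In such bulk samples, fewer cells of a type and less RNA per cell cannot be told apart.

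Levels of the 66 genes, as means over the 8 libraries, ran from 5.28 FPKM for prpf18 to 909 FPKM for snrpb, with a median of 88.4 FPKM. The 5 most abundant were snrpb, snrpd3 (513 FPKM), snrpe (485 FPKM), snrpa (352 FPKM) and snrpb2 (341 FPKM), all of them genes of proteins bound to snRNAs. The least abundant after prpf18 was prpf4ba (7.19 FPKM), one of a pair of genes for a kinase that acts on the tri-snRNP. The members together took 1.097 to 1.239% of all FPKM in a library. In the map of 65 members, the Sm and LSm blocks were mostly above their gene means in the stage I libraries and below them in the stage II libraries, and the tri-snRNP block showed the opposite order.

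**Figure D1:**
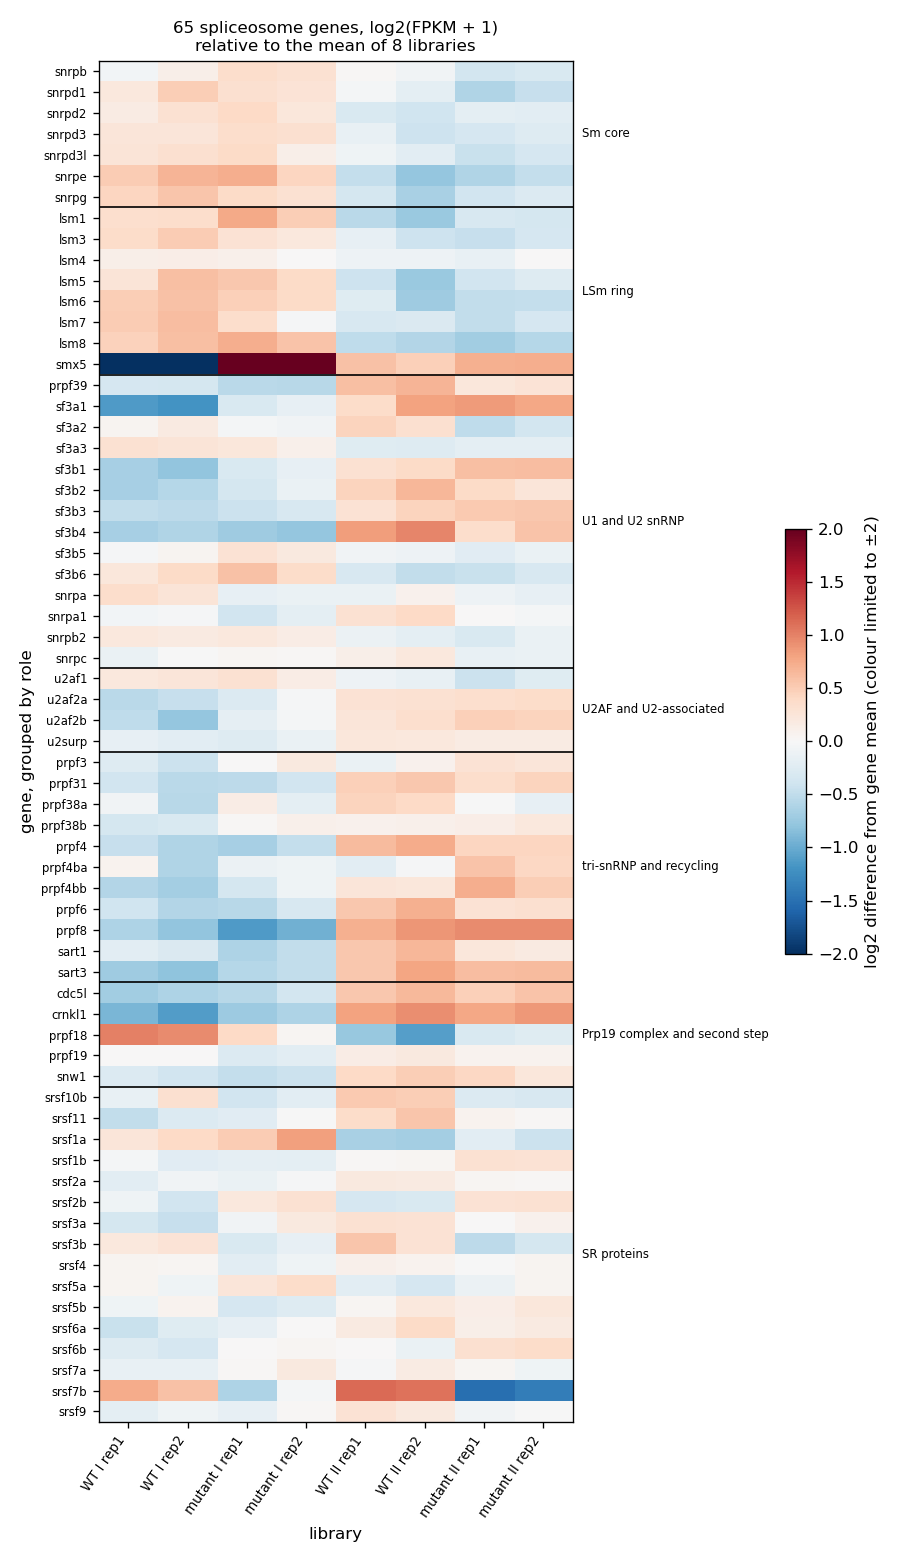
Heat map of 65 of the 66 spliceosome genes (rows, grouped by role) in the 8 libraries (columns, 2 per group). Colour gives log2(FPKM + 1) minus the gene's mean over the 8 libraries, limited to 2 on either side; smx5 in stage I and srsf7b in mutant stage II show the strongest colours.

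Between stage I and stage II most genes of the snRNP rings were lower and most genes of the tri-snRNP and the Prp19 complex were higher, in both genotypes. In WT, 56 of the 66 genes were called at an adjusted p under 0.05 (limma on log2(FPKM + 1)), 35 higher and 21 lower at stage II, against 60.3% of all tested genes, 38.1% higher and 22.2% lower. In the mutant 50 were called, 26 higher and 24 lower, against 66% of all tested genes, 47.3% higher and 18.7% lower. At least 2-fold, 12 were higher and 5 lower in WT (19.7% of all genes) and 6 higher and 4 lower in the mutant (25.4%). Among the called genes, 23 were higher and 19 lower in both genotypes, and smx5 and sf3a2 were higher in WT and lower in the mutant.

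The split by role was as follows. Of the 7 Sm core genes, 0 were higher and 6 lower at stage II in WT, and 7 were lower in the mutant. Of the 8 LSm ring genes, 7 were lower in each genotype and 1, smx5, was higher in WT. Of the 11 genes of the tri-snRNP and its recycling, 10 were higher in WT and 8 in the mutant, with 0 lower in either. All 5 genes of the Prp19 complex and the second step were called in both genotypes, 4 higher and 1 lower. The 15 genes of the U1 and U2 snRNPs divided into 10 higher and 4 lower in WT and 8 higher and 5 lower in the mutant. Of the 4 U2AF and U2-associated genes, 3 were higher and 1 lower in each genotype, and the 16 SR protein genes gave 7 higher and 2 lower in WT against 3 and 3 in the mutant.

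**Figure D2:**
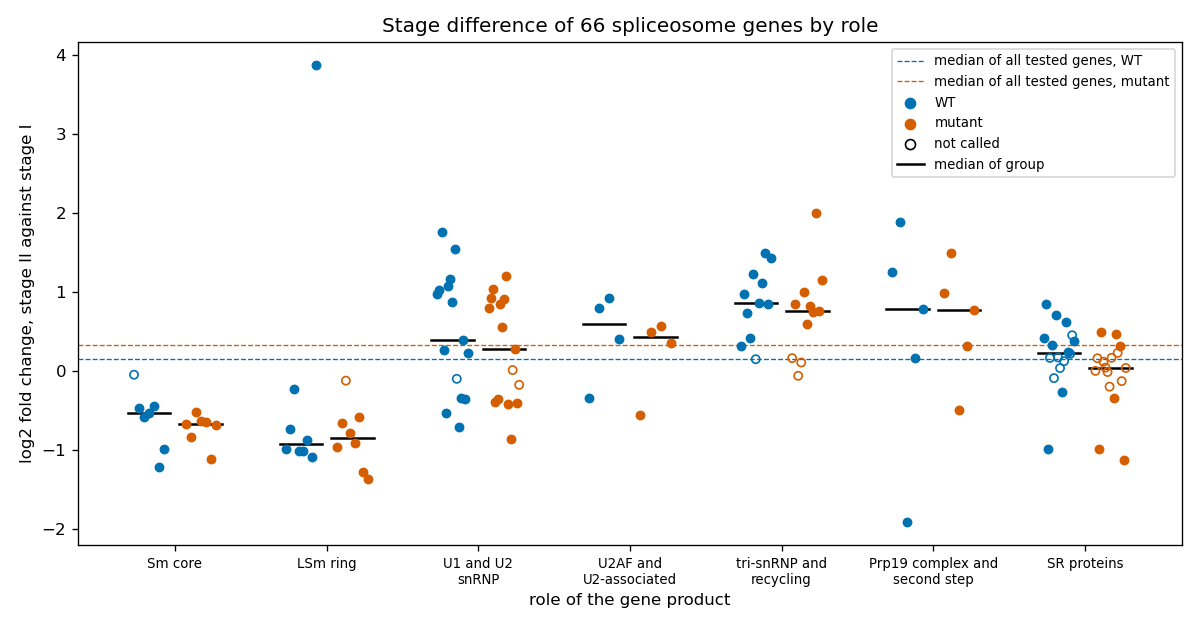
Log2 fold change of stage II against stage I (vertical axis) for the 66 genes by role, with WT in blue and the mutant in orange; filled points are called at an adjusted p under 0.05, black bars are medians of the role, and dashed lines are the medians of all tested genes, 0.15 in WT and 0.32 in the mutant. Sm core and LSm ring genes other than smx5 in WT lie below 0, and most tri-snRNP genes lie above the dashed lines.

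These counts depend on how the libraries are scaled, because the median of all tested genes was itself 0.15 in WT and 0.32 in the mutant on the deposited FPKM scale, and -0.02 and 0 after median-of-ratios scaling. Under that scaling the members gave 25 higher and 23 lower in WT and 16 higher and 36 lower in the mutant, and under quantile normalization 36 and 15 and 24 and 22. Of all 13862 tested genes, median-of-ratios scaling gave 4123 higher and 4167 lower in WT and 4221 and 4315 in the mutant. Quantile normalization gave 4367 and 3813 of them in WT and 4620 and 3613 in the mutant. Relative to the median of all genes, the Sm core median was -0.68 in WT and -0.996 in the mutant as deposited, -0.73 and -1.07 with median-of-ratios scaling, and -0.18 and -0.39 with quantile normalization, where 3 Sm core genes were lower and 1 was higher in WT. The LSm ring median, on the same relative scale, lay between -1.13 and -0.81 in WT and between -1.24 and -0.65 in the mutant over the 3 scalings. The tri-snRNP median lay between 0.64 and 0.71 in WT and between 0.34 and 0.43 in the mutant. For the U1 and U2 snRNP genes the relative median in the mutant changed sign, at -0.05 as deposited, -0.13 with median-of-ratios scaling and 0.33 with quantile normalization, and for the U2AF genes it did so too, at 0.10, 0.04 and -0.11.

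The direction also went with abundance. Of the 33 members above the members' median level, 18 were lower and 10 higher at stage II in WT, and of the 33 below it 3 were lower and 25 higher. Among all tested genes above the same level (1522), 49.3% were lower and 23.9% higher, and among those below it (12340), 18.8% were lower and 39.8% higher. The mutant gave 19 lower and 5 higher of the 33 abundant members, beside 49.0% and 22.6% of all genes above that level. The 79 ribosomal protein genes, a list added after its values were seen, moved alongside, with 57 lower and 0 higher in WT (median -0.55) and 67 lower and 0 higher in the mutant (median -0.78). The part of abundance in the split by role was not tested.

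Between genotypes, smx5 and sf3a1 rose most in the mutant at stage I, and srsf7b fell at both stages. At stage I, 28 of 66 were called, 18 higher and 10 lower in the mutant, against 45.3% of all tested genes, 18.4% higher and 26.9% lower. The median of the members was 0.05 and that of all genes -0.08, and 46 of the 66 lay above the latter. At stage II, 22 were called, 7 higher and 15 lower, against 44.6% of all genes, 25.4% higher and 19.2% lower. Here the median of the members was -0.07 and that of all genes 0.07, and 45 of the 66 lay below the latter. Changes of at least 2-fold were rare, with 1 higher and 0 lower at stage I (13.2% of all genes in either direction) and 0 and 1 at stage II (12.6%). With median-of-ratios scaling the counts were 24 higher and 4 lower at stage I and 3 higher and 18 lower at stage II. Of all 13862 tested genes, that scaling gave 3312 higher and 3035 lower at stage I and 3134 and 3052 at stage II.

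Part of these calls ended when a library was left out. Such a fit leaves 1 library in a group, so a lost call need not mean a smaller difference. The stage I difference of crnkl1 was 0.34 with all libraries and 0.40 without mutant stage I replicate 1, yet its call was lost. The 18 rises at stage I became 9 without WT stage I replicate 2 and 8 without mutant stage I replicate 2, and the 10 falls became 5 without WT or mutant stage I replicate 1. The 7 rises at stage II became 2 without WT stage II replicate 2 or mutant stage II replicate 1 and 3 without mutant stage II replicate 2, and the 15 falls became 7 without mutant stage II replicate 1. Calls that held in each of 19 other settings and left-out libraries were smx5, sf3a1, u2af2b, sf3b1, srsf3a and prpf38b among the rises at stage I and srsf7b, srsf3b and snrpa among the falls. At stage II they were srsf2b among the rises and srsf7b, srsf3b, sf3a2, srsf10b, sf3b4, sart1 and snrpa1 among the falls.

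The genotype difference itself differed between the stages for 14 members, 2 with a higher and 12 with a lower difference at stage II than at stage I, against 36.4% of all tested genes, 23.3% higher and 13% lower. The 2 were prpf18 and prpf8, and 1 and 2 differences were at least 2-fold (17% of all genes). Without WT stage I replicate 1, mutant stage II replicate 1 or mutant stage II replicate 2 only prpf18 was called higher. The median of this term was -0.15 over the members and 0.14 over all genes, and 55 of 66 members lay below the latter. With median-of-ratios scaling 1 member was higher and 27 were lower, and with quantile normalization 3 and 20. Of all 13862 tested genes, 2463 were higher and 2618 lower with median-of-ratios scaling, and 2704 and 2444 with quantile normalization.

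**Figure D3:**
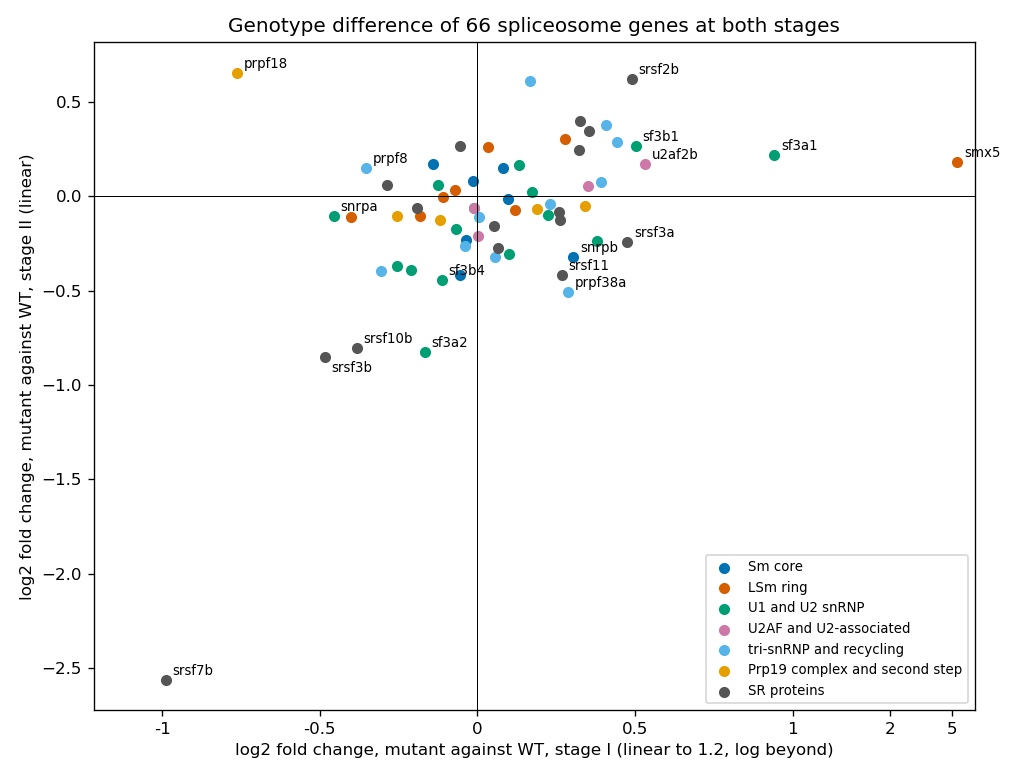
Log2 fold change of mutant against WT at stage I (horizontal axis, linear to 1.2 and logarithmic beyond) and at stage II (vertical axis, linear) for the 66 genes, coloured by role. Most genes lie within 0.5 of 0 on both axes; smx5 stands alone at 5.42 on the horizontal axis and srsf7b alone at -2.56 on the vertical axis.

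Among the LSm ring genes, the rise of smx5 in the mutant at stage I was the largest genotype difference of all 66 members. The gene smx5 (ENSDARG00000070867) carries the symbol of human LSM2 in the reference gene tables; LSm2 is a subunit of both the nuclear ring that holds U6 (LSm2 to LSm8) and the cytoplasmic ring that promotes mRNA decapping (LSm1 to LSm7). It stood at 1.60 and 1.95 FPKM in WT stage I, 119 and 116 in mutant stage I, 40.9 and 38.0 in WT stage II and 44.7 and 44.9 in mutant stage II. The WT stage I libraries were far below all others, the mutant stage I libraries were the highest, and the stage II groups lay close together without overlapping. Its log2 fold change in the mutant was 5.42 ± 0.09 at stage I (adjusted p = 4.4e-08) and 0.18 ± 0.09 at stage II (adjusted p = 0.14). From stage I to stage II it rose by 3.87 ± 0.09 in WT (adjusted p = 2.8e-07) and fell by 1.37 ± 0.09 in the mutant (adjusted p = 1.8e-05).

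The other ring genes held a narrower range. All 7 ran between 70.1 and 409 FPKM at stage I and between 43.8 and 232 FPKM at stage II. As a share of their median in the same library, smx5 reached 0.743 and 0.841% in WT stage I, 51.8 and 56.5% in mutant stage I, 27.9 and 30.2% in WT stage II and 30.4 and 27.6% in mutant stage II. It was the lowest of the 8 by mean FPKM in every group but mutant stage I, where lsm3 was lower.

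The gene that sets the nuclear ring apart, lsm8, was at 189 and 209 FPKM in WT stage I, 229 and 204 in mutant stage I, 96.2 and 91.0 in WT stage II and 84.9 and 92.9 in mutant stage II. Stage I was above stage II in both genotypes without overlap, and the genotypes overlapped at each stage. It fell by 1.08 ± 0.09 from stage I to stage II in WT (adjusted p = 4.7e-05) and by 1.28 ± 0.09 in the mutant (adjusted p = 1.9e-05). Its counterpart in the cytoplasmic ring, lsm1, was at 270 and 272, 362 and 298, 147 and 127 and 170 and 167 FPKM in the same order of groups. It was higher in both mutant libraries at each stage, by 0.28 ± 0.10 at stage I (adjusted p = 0.062) and 0.30 ± 0.10 at stage II (adjusted p = 0.047). The stage II call of lsm1 ended when any of 5 libraries was left out, with adjusted p between 0.071 and 0.23. It also ended with a pseudocount of 0.1 (0.051), no filter (0.10), median-of-ratios scaling (0.16) or no trend in the prior (0.093).

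The remaining LSm genes were lower at stage II in both genotypes, and all but lsm4 in the mutant were called. The falls of lsm3, lsm5, lsm6 and lsm7 lay between -1.01 and -0.73 in WT and between -0.91 and -0.58 in the mutant. The smallest was that of lsm4, at 176 and 178 FPKM in WT stage I and 151 in both WT stage II libraries (-0.23 ± 0.07, adjusted p = 0.025), a call that ended without any single WT library (adjusted p from 0.065 to 0.083), without a trend in the prior (0.074) or with quantile normalization, where it was -0.07 (0.35). In the mutant lsm4 was at -0.12 ± 0.07 (adjusted p = 0.16). Only lsm7 was called lower in the mutant at stage I, from 215 and 232 to 192 and 148 FPKM (-0.40 ± 0.12, adjusted p = 0.028). This call ended without WT stage I replicate 1 (0.067), WT stage I replicate 2 (0.13) or mutant stage I replicate 2 (0.13). It also ended with median-of-ratios scaling (-0.29, adjusted p = 0.13), with no filter on low values (0.073), without a trend in the prior (0.058) and with only the 4 libraries of the comparison (0.064).

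**Figure D4:**
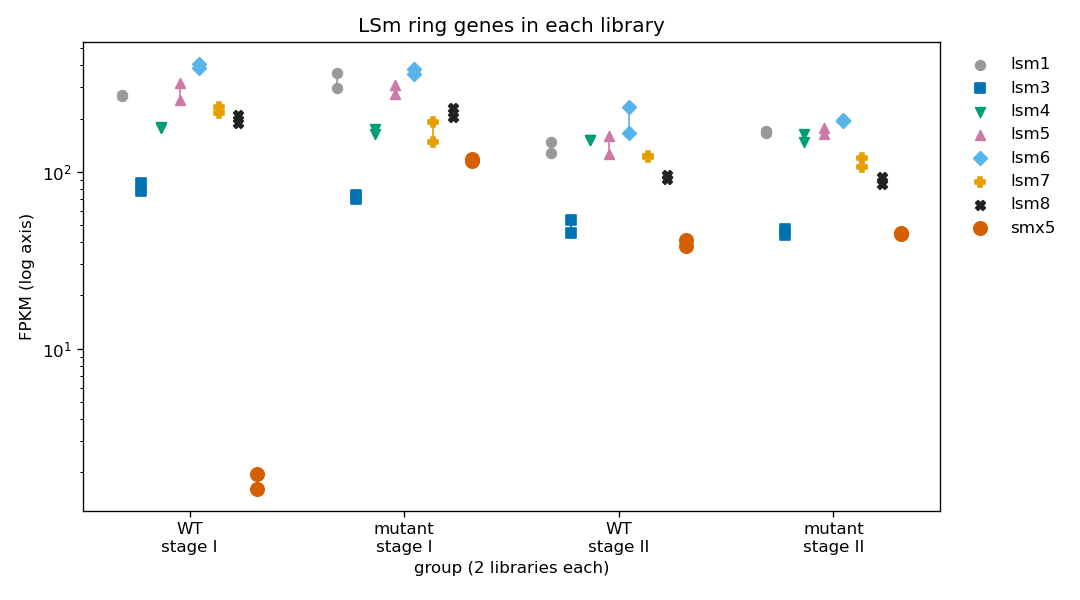
FPKM of the 8 LSm ring genes (logarithmic axis) in each library of the 4 groups; the points of a gene in a group are its 2 libraries, joined by a line. The orange circles of smx5 stand at 1.60 and 1.95 FPKM in WT stage I, below every other point, and at 119 and 116 FPKM in mutant stage I.

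Over the 8 libraries, the tested genes whose log2(FPKM + 1) followed smx5 most closely were si:dkey-285b23.3 and si:ch211-225b7.5 (Pearson r 0.994 each), gemin8 (0.993), khdrbs1a (0.992) and AL929192.1 (0.991). These values are a description over 8 shared libraries. The gene gemin8, which encodes a subunit of the SMN complex that loads Sm proteins onto snRNAs, was at 79.0 and 84.5 FPKM in WT stage I, 145 and 143 in mutant stage I and 118 to 120 in the 4 stage II libraries. The gene khdrbs1a encodes an RNA-binding protein known in mammals as Sam68, a regulator of alternative splicing, and was at 351 and 328, 758 and 850, 648 and 627 and 637 and 654 FPKM in the 4 groups. Both were lowest in WT stage I and highest in mutant stage I, as smx5 was, over a much smaller range. All of these genes were picked for their likeness to smx5, so a shared order of groups follows from that choice. The range of si:dkey-285b23.3 (7.24 to 17.3 FPKM) and AL929192.1 (15.4 to 43.0 FPKM) was small too. That of si:ch211-225b7.5 was near the range of smx5. This gene was at 0.513 and 1.52 FPKM in WT stage I and 118 and 141 in mutant stage I. At stage II it was at 32.9 and 25.7 in WT and 36.9 and 34.2 in the mutant.

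Of the 7 Sm core genes, 6 fell with stage in WT, where snrpb did not pass, and 7 fell in the mutant. Between genotypes 1 (14.3%) was called at stage I and 2 (28.6%) at stage II, against 45.3% and 44.6% of all tested genes. With quantile normalization 3 were lower and 1 higher with stage in WT and 5 were lower in the mutant. Their summed level was 3243 and 3557 FPKM in WT stage I, 3759 and 3449 in mutant stage I, 2527 and 2241 in WT stage II and 2087 and 2213 in mutant stage II. Every stage I library was above every stage II library. The largest fall was that of snrpe (SmE), from 635 and 712 to 321 and 261 FPKM in WT (-1.21 ± 0.13, adjusted p = 0.00018) and from 739 and 600 to 293 and 321 FPKM in the mutant (-1.12 ± 0.13, adjusted p = 0.0002). The gene of SmG, snrpg, fell by 0.99 ± 0.11 in WT and by 0.68 ± 0.11 in the mutant. Those of SmD1, SmD2 and SmD3 (snrpd1, snrpd2, snrpd3 and its copy snrpd3l) fell by 0.44 to 0.58 in WT and by 0.52 to 0.83 in the mutant. In WT the calls of snrpd1, snrpd3 and snrpd3l ended with quantile normalization (adjusted p = 0.14, 0.53 and 0.18), and so did that of snrpd3 in the mutant (0.98).

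The most abundant member, snrpb, which encodes the SmB subunit, was called between the genotypes at both stages, in opposite directions. It was at 861 and 969 FPKM in WT stage I, 1149 and 1106 in mutant stage I, 915 and 855 in WT stage II and 693 and 723 in mutant stage II. The mutant libraries were the higher at stage I and the lower at stage II, without overlap in either. Its log2 fold change was 0.30 ± 0.08 at stage I (adjusted p = 0.021) and -0.32 ± 0.08 at stage II (adjusted p = 0.017). The difference between the stages was -0.62 ± 0.12 (adjusted p = 0.0059). The stage I call ended without WT stage I replicate 1 (0.10), mutant stage I replicate 1 (0.089) or mutant stage I replicate 2 (0.057) or with only the 4 libraries of the comparison (0.066). The stage II call ended without WT stage II replicate 1 (0.093) or either mutant stage II replicate (0.10 and 0.059), and with quantile normalization the value was -0.05. From stage I to stage II it was at -0.05 ± 0.08 in WT (adjusted p = 0.66) and fell by 0.67 ± 0.08 in the mutant (adjusted p = 0.00026), a value that became 0.05 with quantile normalization. At stage II snrpd1 was also lower in the mutant, from 264 and 239 to 180 and 197 FPKM (-0.42 ± 0.10, adjusted p = 0.014). This call ended without WT stage II replicate 1 or mutant stage II replicate 1 (adjusted p = 0.084 for each).

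Among the U1 and U2 snRNP genes, subunits of the same complex moved apart. The SF3a complex helps U2 to bind the branch point. Its large subunit gene sf3a1 was at 36.6 and 34.9 FPKM in WT stage I, 66.3 and 72.9 in mutant stage I, 106 and 144 in WT stage II and 148 and 140 in mutant stage II. The stage I genotypes were well apart and the stage II genotypes overlapped. The gene was higher in the mutant at stage I by 0.94 ± 0.13 (adjusted p = 0.00096) and by 0.22 ± 0.13 at stage II (adjusted p = 0.21), and it rose with stage by 1.76 ± 0.13 in WT (adjusted p = 3.7e-05) and 1.04 ± 0.13 in the mutant (adjusted p = 0.00029).

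The gene of the middle subunit, sf3a2, showed its genotype difference at the other stage. It was at 178 and 194 FPKM in WT stage I, 167 and 163 in mutant stage I, 233 and 214 in WT stage II and 120 and 132 in mutant stage II. It fell in the mutant at stage II by 0.82 ± 0.08 (adjusted p = 0.00019), beside -0.17 ± 0.08 at stage I (adjusted p = 0.13), and the difference between the stages was -0.66 ± 0.11 (adjusted p = 0.0039). With stage sf3a2 rose by 0.27 ± 0.08 in WT (adjusted p = 0.021), a call that ended without WT stage I replicate 1 (0.11), without WT stage II replicate 1 (0.12) without a trend in the prior (0.059) or with median-of-ratios scaling (0.72). It fell by 0.39 ± 0.08 in the mutant (adjusted p = 0.0031). The gene of the third subunit, sf3a3, was at 140 and 136, 132 and 121, 95.8 and 94.1 and 99.2 and 98.9 FPKM, lower at stage II in both genotypes and called between the genotypes at neither stage.

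The SF3b complex contacts the branch point itself. The gene of its scaffold, sf3b1, rose in the mutant at stage I, from 15.6 and 14.2 to 20.4 and 22.7 FPKM (0.50 ± 0.09, adjusted p = 0.0033), and stood at 31.7 and 33.5 against 39.2 and 39.5 FPKM at stage II (0.27 ± 0.09, adjusted p = 0.048). The stage II call of sf3b1 ended when any of 5 libraries was left out, with adjusted p from 0.05 to 0.18, and under 6 other settings (0.05 to 0.068). At stage II sf3b4 was lower in the mutant, at 168 and 186 against 120 and 140 FPKM (-0.44 ± 0.09, adjusted p = 0.0056). With stage, sf3b1, sf3b2, sf3b3 and sf3b4 rose in both genotypes, by 0.87 to 1.54 in WT and 0.55 to 1.21 in the mutant, where sf3b2 missed the threshold with median-of-ratios scaling (adjusted p = 0.27). Of the small subunits, sf3b6 fell by 0.71 ± 0.10 in WT and 0.86 ± 0.10 in the mutant, while sf3b5 was at -0.10 ± 0.07 in WT (adjusted p = 0.26) and fell by 0.42 ± 0.07 in the mutant (adjusted p = 0.0012, but 0.59 with quantile normalization).

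The U1 snRNP is represented by snrpa and snrpc (the U1-specific A and C proteins) and the assembly factor prpf39, and U2 also by snrpa1 and snrpb2 (the U2-specific A' and B'' proteins). The level of snrpa was 447 and 418 FPKM in WT stage I, 311 and 319 in mutant stage I, 316 and 369 in WT stage II and 325 and 310 in mutant stage II. WT stage I was above the 3 other groups, and the stage II genotypes overlapped. It fell in the mutant at stage I (-0.46 ± 0.09, adjusted p = 0.0038) and was at -0.10 ± 0.09 at stage II (adjusted p = 0.36). At stage II, snrpa1 was lower in the mutant, at 201 and 213 against 163 and 157 FPKM (-0.37 ± 0.08, adjusted p = 0.0068), and so was prpf39, at 30.1 and 31.9 against 23.1 and 23.7 FPKM (-0.39 ± 0.09, adjusted p = 0.0084), whose call ended without mutant stage II replicate 1 (0.057). At stage I snrpa1 was called lower in the mutant too, at 156 and 159 against 124 and 141 FPKM (-0.25). That call ended with median-of-ratios scaling (-0.14, adjusted p = 0.21) or quantile normalization (-0.18, 0.097). It also ended with no filter (0.052), no trend in the prior (0.079) or only the 4 libraries of the comparison (0.072). The call was lost too when single stage I libraries were left out. Without WT stage I replicate 1 or 2 the value was -0.27 or -0.24, and without mutant stage I replicate 1 it was -0.16. With stage prpf39 rose in both genotypes, by 0.98 ± 0.09 in WT and by 0.80 ± 0.09 in the mutant.

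**Figure D5:**
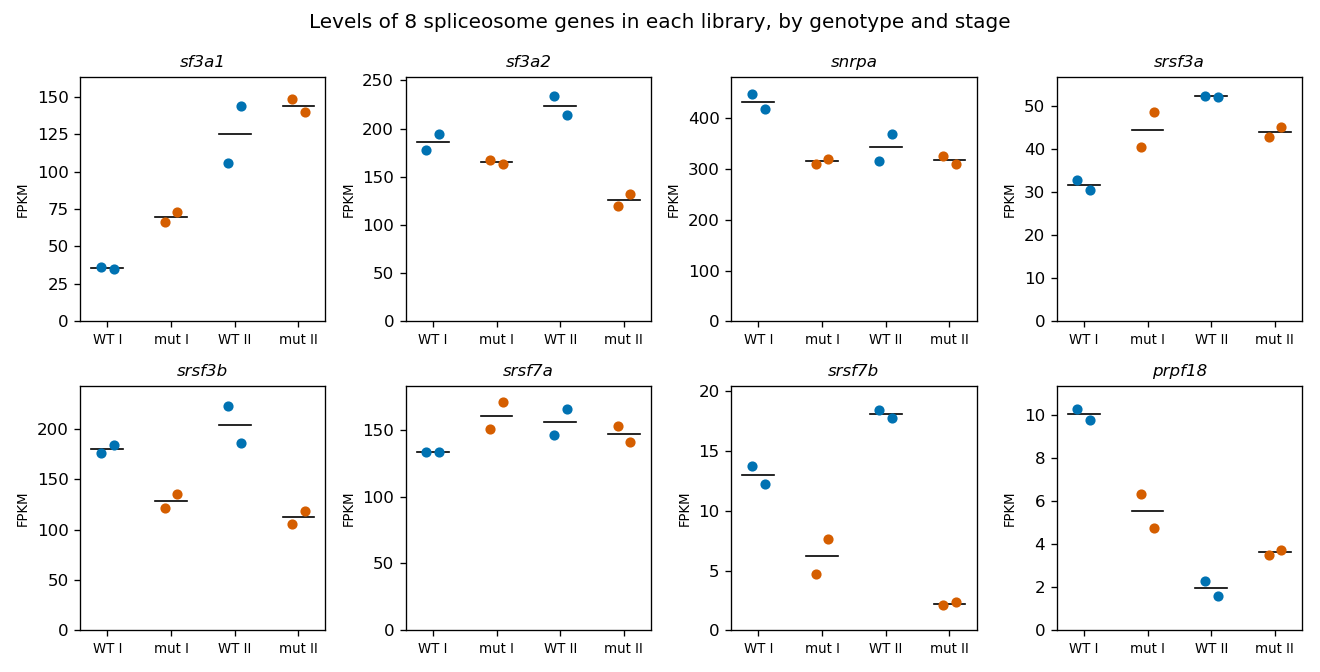
FPKM (vertical axes, each starting at 0) of 8 spliceosome genes in the 4 groups; points are libraries, blue for WT and orange for the mutant, and black bars are means of 2 libraries. The stage I genotypes are apart for sf3a1, at 34.9 to 36.6 and 66.3 to 72.9 FPKM, and the stage II genotypes for srsf7b, at 17.8 to 18.4 and 2.09 to 2.38 FPKM.

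The U2AF heterodimer reads the end of the intron, its large subunit binding the polypyrimidine tract and its small subunit the AG. The 2 genes of the large subunit were higher in the mutant at stage I. The level of u2af2b was 45.0 and 37.7 FPKM in WT stage I, 57.0 and 63.1 in mutant stage I, 76.4 and 82.3 in WT stage II and 90.6 and 88.4 in mutant stage II, and the mutant libraries were above the WT libraries at each stage. Its fold change was 0.53 ± 0.10 at stage I (adjusted p = 0.0036) and 0.17 ± 0.10 at stage II (adjusted p = 0.19). For u2af2a, at 14.2 and 15.1 against 17.3 and 20.8 FPKM at stage I, it was 0.35 ± 0.10 (adjusted p = 0.028), and that call ended without either WT stage I replicate (0.11 and 0.052), without mutant stage I replicate 2 (0.15) or with only the 4 libraries of the comparison (0.087). The small subunit gene u2af1 was at 191 and 197 FPKM in WT stage I and 205 and 183 in mutant stage I (0.00 ± 0.09, adjusted p = 0.99). With stage the large subunit genes rose in both genotypes, by 0.79 and 0.93 in WT, while u2af1 fell by 0.35 ± 0.09 in WT and 0.56 ± 0.09 in the mutant. With median-of-ratios scaling the rises in the mutant missed the threshold (adjusted p = 0.40 for u2af2a and 0.081 for u2af2b). With quantile normalization the rise of u2af2a in the mutant (0.05, adjusted p = 0.7) and the fall of u2af1 in WT (adjusted p = 0.057) did so.

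Of the 11 genes of the tri-snRNP and its recycling, 10 rose with stage in WT and 8 in the mutant. Those that did not pass were prpf4ba in WT (0.15, adjusted p = 0.58) and prpf3 (0.16, 0.24), prpf38a (-0.06, 0.77) and prpf38b (0.11, 0.20) in the mutant. With median-of-ratios scaling 9 rose in WT, and 7 rose and 2 fell in the mutant. With quantile normalization 9 and 7 rose. Under these scalings the rise of prpf3 in WT ended (adjusted p = 0.34 and 0.66), as did that of prpf4ba in the mutant (0.31 and 0.65). The summed level of the 11 was 341 and 304 FPKM in WT stage I, 346 and 365 in mutant stage I, 602 and 645 in WT stage II and 576 and 572 in mutant stage II. The largest rise was that of prpf8, the U5 protein at the catalytic centre of the spliceosome, from 12.6 and 11.1 to 33.0 and 37.3 FPKM in WT (1.49 ± 0.11, adjusted p = 3.5e-05) and from 8.46 and 9.62 to 39.1 in both mutant libraries (2.00 ± 0.11, adjusted p = 8.8e-06). At stage I prpf8 was lower in the mutant (-0.35 ± 0.11, adjusted p = 0.034). This call ended without WT stage I replicate 1 (0.15), mutant stage I replicate 1 (0.16) or either mutant stage II replicate (0.059 for each). It also ended with a pseudocount of 5 (0.052), no filter (0.051), median-of-ratios scaling (0.054) or only the 4 libraries of the comparison (0.11). The rises in WT were 1.43 ± 0.09 for sart3, which helps to rebuild the U4/U6 particle after splicing, 1.22 ± 0.09 for prpf4 and 0.97 ± 0.08 for prpf31, both of them proteins of U4/U6, and 1.12 ± 0.12 for prpf6, a bridge between U5 and U4/U6. In the mutant they were 1.16, 1.00, 0.85 and 0.74.

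Between the genotypes 3 of the 11 were higher and 2 lower in the mutant at stage I, and 1 was higher and 3 lower at stage II. Of all tested genes, 18.4% were higher and 26.9% lower at stage I, and 25.4% and 19.2% at stage II. The gene prpf38b, related to a factor of spliceosome activation, was at 51.6 and 53.7 FPKM in WT stage I, 67.2 and 71.7 in mutant stage I, 70.7 and 71.3 in WT stage II and 73.2 and 76.8 in mutant stage II. WT stage I was below the 3 other groups, and the fold change was 0.39 ± 0.07 at stage I (adjusted p = 0.0026) and 0.08 ± 0.07 at stage II (adjusted p = 0.39). The tri-snRNP gene sart1 was lower in the mutant at both stages, at 35.6 and 33.5 against 26.5 and 29.1 FPKM at stage I (-0.31 ± 0.08, adjusted p = 0.02) and at 60.02 and 65.8 against 48.3 and 46.8 FPKM at stage II (-0.39 ± 0.08, adjusted p = 0.0071). The stage I call of sart1 ended without WT stage I replicate 1 (0.088) or mutant stage I replicate 1 (0.099), with median-of-ratios scaling (0.057) or with only the 4 libraries of the comparison (0.055). The kinase gene prpf4bb was higher in the mutant at both stages (0.41 ± 0.12, adjusted p = 0.03, and 0.38 ± 0.12, adjusted p = 0.041). The first call ended without either WT stage I replicate (0.066 and 0.12) or mutant stage I replicate 2 (0.17). The second ended when any of 5 libraries was left out (0.053 to 0.23). The calls of prpf4bb also ended with no filter (0.057 and 0.072). The first was lost with only the 4 libraries of the comparison (0.069), and the second with median-of-ratios scaling (0.063), no trend in the prior (0.055) or the replicate block (0.058).

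Of the Prp19 complex and the second step, cdc5l, crnkl1 and snw1, whose products join the catalytic spliceosome, rose with stage in both genotypes. The largest of these rises was that of crnkl1, from 8.09 and 6.92 to 28.9 and 31.7 FPKM in WT (1.88 ± 0.11, adjusted p = 1.7e-05) and from 9.31 and 10.2 to 28.3 and 30.2 FPKM in the mutant (1.49 ± 0.11, adjusted p = 2.9e-05). For cdc5l the rises were 1.25 ± 0.09 and 0.99 ± 0.09, and for snw1 0.78 ± 0.10 and 0.77 ± 0.10. The gene of the ubiquitin ligase that names the complex, prpf19, stood at 122 FPKM in both WT stage I libraries and 99.8 and 104 in the mutant ones (-0.25 ± 0.06, adjusted p = 0.011), with the call at the threshold without mutant stage I replicate 1 (adjusted p = 0.05) and lost with median-of-ratios scaling (0.12) or quantile normalization (0.086).

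The least abundant member, prpf18, which acts in the second catalytic step, went against this group. It was at 10.2 and 9.77 FPKM in WT stage I, 6.31 and 4.75 in mutant stage I, 2.31 and 1.59 in WT stage II and 3.49 and 3.73 in mutant stage II. WT was above the mutant at stage I and below it at stage II, with no overlap at either. Its log2 fold change in the mutant was -0.76 ± 0.18 at stage I (adjusted p = 0.011) and 0.65 ± 0.18 at stage II (adjusted p = 0.021), and the difference between the stages was 1.42 ± 0.26 (adjusted p = 0.0048). The stage I call ended without WT stage I replicate 1 (0.051) or mutant stage I replicate 2 (0.081), and the stage II call without WT stage II replicate 2 (0.11), mutant stage II replicate 1 (0.069) or mutant stage II replicate 2 (0.094) and with quantile normalization (0.052). The difference between the stages was called without each of these. From stage I to stage II prpf18 fell by 1.91 ± 0.18 in WT (adjusted p = 9.4e-05). In the mutant it was called lower too, at -0.49. That call ended with a pseudocount of 0.1 (adjusted p = 0.055), no filter (0.08) or only the 4 libraries of the comparison (0.056). The call was also lost when single libraries were left out. Without mutant stage I replicate 1 the value was -0.32, and without mutant stage II replicate 1 or 2 it was -0.45 or -0.53.

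The SR proteins held the strongest fall of all members in the mutant. The gene srsf7b, 1 of 2 zebrafish copies of a factor known in mammals for exon choice and for coupling splicing to mRNA export, was at 13.7 and 12.3 FPKM in WT stage I, 4.74 and 7.63 in mutant stage I, 18.4 and 17.8 in WT stage II and 2.09 and 2.38 in mutant stage II. Every mutant library was below every WT library. Its log2 fold change was -0.99 ± 0.20 at stage I (adjusted p = 0.0047) and -2.56 ± 0.20 at stage II (adjusted p = 5.6e-05), and the difference between the stages was -1.58 ± 0.28 (adjusted p = 0.0041). From stage I to stage II srsf7b fell by 1.12 ± 0.20 in the mutant (adjusted p = 0.0013) and was at 0.45 ± 0.20 in WT (adjusted p = 0.077). The other copy, srsf7a, was at 134 FPKM in both WT stage I libraries, 150 and 170 in mutant stage I, 146 and 166 in WT stage II and 153 and 141 in mutant stage II. Of the summed FPKM of both copies, srsf7b made up 9.30 and 8.39% in WT stage I, 3.06 and 4.28% in mutant stage I, 11.2 and 9.68% in WT stage II and 1.35 and 1.67% in mutant stage II.

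The copies of srsf3, which encodes the smallest SR protein, also moved apart. The more abundant copy, srsf3b, was at 176 and 184 FPKM in WT stage I, 122 and 135 in mutant stage I, 223 and 185 in WT stage II and 106 and 119 in mutant stage II. Its mutant libraries were all below its WT libraries, with a fold change of -0.48 ± 0.11 at stage I (adjusted p = 0.0071) and -0.85 ± 0.11 at stage II (adjusted p = 0.00056). The other copy, srsf3a, was at 32.8 and 30.3, 40.4 and 48.4, 52.3 and 52.0 and 42.7 and 45.1 FPKM. It was higher in the mutant at stage I (0.48 ± 0.10, adjusted p = 0.0058) and at -0.24 ± 0.10 at stage II (adjusted p = 0.077), and the difference between the stages was -0.72 ± 0.14 (adjusted p = 0.0061). How reads shared by such copies were divided is not given in the sources used here, so the split between copies is uncertain.

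Other SR genes were called in the mutant in both directions. The gene srsf2b was higher at both stages, at 9.23 and 7.41 against 11.6 and 12.5 FPKM at stage I (0.49 ± 0.13, adjusted p = 0.018) and at 7.62 and 7.82 against 12.4 and 12.5 FPKM at stage II (0.62 ± 0.13, adjusted p = 0.0067). The stage I call ended without WT stage I replicate 2 (0.07) or either mutant stage I replicate (0.052 and 0.099) or with only the 4 libraries of the comparison (0.056). The gene srsf10b, whose mammalian relative represses splicing when dephosphorylated, was at 103 and 143, 88.0 and 98.6, 166 and 161 and 94.7 and 91.9 FPKM in the 4 groups, and it fell in the mutant at stage II (-0.80 ± 0.14, adjusted p = 0.0028). At stage I its value was -0.38 ± 0.14 (adjusted p = 0.055). At stage II srsf11 was at 110 and 125 in WT against 89.0 and 86.4 FPKM in the mutant (-0.42 ± 0.11, adjusted p = 0.016). This call ended without WT stage II replicate 2 (0.096) or either mutant stage II replicate (0.057 and 0.075). With stage srsf1a, a factor that defines exons, fell in both genotypes, from 270 and 301 to 146 and 142 FPKM in WT (-0.98 ± 0.12, adjusted p = 0.00026) and from 327 and 406 to 197 and 170 FPKM in the mutant (-0.99 ± 0.12, adjusted p = 0.0002).

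Spliceosome genes outside the naming rule were counted from a list of 82, of which 75 were tested. At stage I 11 were higher and 20 lower in the mutant (18.4% and 26.9% of all tested genes), and at stage II 11 higher and 18 lower (25.4% and 19.2%). From stage I to stage II 47 were higher and 15 lower in WT (38.1% and 22.2% of all tested genes) and 51 higher and 11 lower in the mutant (47.3% and 18.7%). The scaffold gene srrm2 fell in the mutant at both stages (-1.17 ± 0.16, adjusted p = 9.2e-04, and -1.20 ± 0.16, adjusted p = 9.5e-04), and plrg1, a gene of the Prp19 complex, rose at stage I (1.07 ± 0.07, adjusted p = 2.4e-05). A gene of the minor spliceosome, snrnp48, rose by 2.21 ± 0.19 at stage II (adjusted p = 1.1e-04), and phf5a, the gene of a small SF3b subunit, by 1.07 ± 0.10 (adjusted p = 1.9e-04). The level of phf5a was higher in the mutant at stage I too, at 189 and 207 FPKM in WT against 424 and 359.5 in the mutant.

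Of 16 tested genes for snRNP assembly and import, 4 were higher and 3 lower in the mutant at stage I and 3 and 3 at stage II. With stage 11 were higher and 4 lower in WT and 11 and 2 in the mutant. Of all tested genes, 18.4% were higher and 26.9% lower in the mutant at stage I, 25.4% and 19.2% at stage II, 38.1% and 47.3% were higher with stage in WT and in the mutant, and 22.2% and 18.7% lower. At stage I gemin8 rose by 0.81 ± 0.06 (adjusted p = 5.2e-05) and gemin2, another SMN complex gene, fell by 0.67 ± 0.09 (adjusted p = 6.0e-04). At stage II smn1, the gene of the complex's central subunit, fell by 0.45 ± 0.06 (adjusted p = 0.0012), and prmt5, the gene of the methyltransferase that acts on Sm proteins, rose by 0.59 ± 0.10 (adjusted p = 0.0028). Of 15 tested SR protein kinases and partners, 4 were higher and 1 lower at each stage in the mutant, beside the same shares of all tested genes. With stage 8 were higher and 1 lower in WT and 10 and 0 in the mutant. Among them rnps1, a splicing activator of the exon junction complex, changed direction: it was at 4.77 and 4.67 FPKM in WT stage I, 0.105 and 0.152 in mutant stage I, 0.745 and 0.765 in WT stage II and 8.19 and 8.96 in mutant stage II (-2.34 ± 0.14, adjusted p = 1.4e-05, and 2.45 ± 0.14, adjusted p = 1.4e-05). The genes of these lists were not recomputed under other settings.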

How the data were processed

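The 8 libraries were read from the deposited table of FPKM values. The submitters' processing notes name Trim Galore for trimming, STAR 2.5.3a with the danRer11 build for alignment and Cufflinks 2.2.1 for FPKM; the annotation and the treatment of shared reads are not given in the sources used here. Of 32197 entries, 24 repeated others exactly and were merged, and 103 gene IDs whose entries disagreed were dropped, 0 of them members. The 13862 genes past the filter (1 FPKM or more in 2 or more libraries) entered a limma 3.58.1 fit (R 4.3.3) of log2(FPKM + 1) with 4 group means, all 8 libraries and a trend in the prior, with 4 residual and 3.78 prior degrees of freedom. Fold changes on this scale understate those of low genes. Adjusted p are two-sided Benjamini-Hochberg values over all tested genes, and ± after a log2 fold change is the standard error. The fit was tested on simulated data.

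The members, the roles, the outside lists and the markers were chosen with earlier results of these data known. Genes named in the text were, by rule, all Sm and LSm genes, the 5 most abundant members, those next to the filter, and the largest called changes of each comparison without overlap between groups (up to 12 each way for genotype, 8 for stage and 6 for the interaction). Fewer were described, and 1 member, which enters the counts, is not reported by name; srsf7a, sf3a3, sf3b5, u2af1 and other subunits outside this rule were added as the partners of named genes after their values were seen. Up to 4 called genes of each outside list could be named. Gene symbols of the reference tables were used for names only, since their assembly is GRCz12tu. The alternatives tried were median-of-ratios scaling, quantile normalization, pseudocounts of 0.1 and 5, filters of none or a mean of 5 FPKM, a prior without trend or a robust one, a replicate block, only the 4 libraries of a comparison, conflicting entries at their mean, a 2-fold minimum and leaving out each library.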

Additional observations from a re-analysis of the deposited data

Results flagged for a closer look

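For 14 members (21.2%) the genotype difference at stage II differed from that at stage I, against 36.4% of all tested genes. The test was of the difference itself, the interaction of genotype and stage in the limma fit. The differences, stage II minus stage I on the log2 scale, were -5.23 for smx5, -1.58 for srsf7b, -0.80 for prpf38a, -0.72 for sf3a1, -0.72 for srsf3a, -0.69 for srsf11, -0.66 for sf3a2, -0.62 for snrpb, -0.62 for sf3b2, -0.41 for snrpc, -0.32 for sf3b5, -0.32 for prpf38b, 0.51 for prpf8 and 1.42 for prpf18. The adjusted p-values ran from 2.7e-07 for smx5 to 0.04 for sf3b5. Those of smx5, srsf7b, srsf3a, srsf11, sf3a2, snrpb and prpf18 were called in each of 18 other settings and left-out libraries. The other 7 were lost with single libraries left out: prpf38a in 6 of the 8 such fits (adjusted p from 0.052 to 0.10), prpf38b in 6 (0.072 to 0.12), sf3b5 in 6 (0.062 to 0.14) and prpf8 in 5 (0.10 to 0.12). For sf3a1 they were both WT stage I libraries, mutant stage I replicate 2 and mutant stage II replicate 2 (0.056 to 0.074), for sf3b2 WT stage I replicate 1, mutant stage I replicate 2, WT stage II replicate 2 and mutant stage II replicate 2 (0.051 to 0.058), and for snrpc WT stage II replicate 2 (0.05) and mutant stage II replicate 1 (0.055). With no filter on low values those of prpf38a (0.091), prpf8 (0.06), sf3a1 (0.061) and sf3b5 (0.059) were lost too, and without a trend in the prior those of prpf38a (0.058), prpf38b (0.092), prpf8 (0.051), sf3b5 (0.10) and snrpc (0.051). With the replicate block those of prpf8 (0.055) and sf3b5 (0.061) were lost, with median-of-ratios scaling that of prpf8 (0.075) and with quantile normalization that of sf3b5 (0.069). The genotype difference had opposite signs with a call at each stage for snrpb (0.30 and -0.32) and prpf18 (-0.76 and 0.65).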

How the results depend on the processing

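Of 140 called results of named members, 84 stayed called in the same direction under every alternative but the 2-fold minimum. Scaling shifted the calls among all tested genes too, as given above. Rises in the mutant at stage I (18) numbered 11 with no filter, 9 with only the 4 libraries of the comparison, 1 at 2-fold and 8 to 17 with a library left out; falls (10) numbered 4 with median-of-ratios scaling, 5 with the 4 libraries, 0 at 2-fold and 5 to 9. Rises at stage II (7) numbered 3 with no filter, with median-of-ratios scaling or with no trend, 0 at 2-fold and 2 to 7; falls (15) numbered 1 at 2-fold and 7 to 17. Rises with stage in WT (35) numbered 12 at 2-fold and 31 to 35, and falls (21) 5 and 18 to 20. In the mutant rises with stage (26) numbered 16 with median-of-ratios scaling, 6 at 2-fold and 22 to 26, and falls (24) 4 at 2-fold and 22 to 24. Positive interactions (2) numbered 1 with no filter, median-of-ratios scaling, no trend or 2-fold and 1 to 3, and negative ones (12) numbered 27 with median-of-ratios scaling, 20 with quantile normalization, 2 at 2-fold and 8 to 13.

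The replicate numbers did not pair the libraries (correlations of deviations from group means between -0.0412 and 0.0645). With the replicate block the members called higher and lower were 17 and 11 at stage I, 4 and 14 at stage II, 32 and 20 for stage in WT, 27 and 24 for stage in the mutant, and 1 and 12 for the interaction. Over all called results of members, the sign turned under no setting but the 2 scalings, and with stage alone. With median-of-ratios scaling it turned for prpf19 in WT (-0.048) and in the mutant (-0.081), and for snrpa1 (-0.127), srsf6b (-0.073) and u2surp (-0.020) in the mutant. With quantile normalization it turned for snrpa (0.077), snrpb2 (0.043) and srsf6b (-0.024) in WT and for snrpb (0.047), snrpb2 (0.051), srsf6b (-0.097), sf3b5 (0.0425), u2surp (-0.142) and srsf1b (-0.018) in the mutant. The cause was not tested. With 2 libraries per group and no read counts, the precision of a single gene rests on the spread pooled over groups.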

Other observations

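In the gene order of a different zebrafish assembly, the tested genes next to smx5 are lpp on one side and bcl6aa on the other. At stage I lpp was at 5.54 and 4.77 FPKM in WT and 1.53 and 1.63 in the mutant (log2 fold change -1.25 ± 0.17, adjusted p = 7.5e-04), in the opposite direction to smx5. The gene bcl6aa was at 0.172 and 0.177 FPKM in WT stage I and 3.74 and 4.07 in mutant stage I (2.06 ± 0.14, adjusted p = 2.3e-05), and at 0.539 and 0.556 against 1.82 and 1.63 FPKM at stage II (0.81 ± 0.14, adjusted p = 0.0024). Next to srsf7b, gemin6 was called at neither stage (0.11 ± 0.08 and 0.21 ± 0.08, adjusted p = 0.33 and 0.073). These neighbours were chosen after the values of smx5 and srsf7b were seen.

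Among the other SR gene copies, the share of srsf5b in the summed FPKM of srsf5a and srsf5b was 35.4 and 40.2% in WT stage I, 28.5 and 27.9% in mutant stage I, 41.9 and 47.1% in WT stage II and 42.0 and 40.6% in mutant stage II. Both mutant stage I libraries were below the other 6. Chosen after its values were seen, the share is given as a description.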
